A study of Mus musculus with 58 samples.

Results

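The 10 mitochondrially encoded mRNAs described here are mt-Nd1, mt-Nd2, mt-Nd3, mt-Nd4, mt-Nd4l and mt-Nd5 (subunits of complex I, the NADH dehydrogenase), mt-Cytb (complex III), mt-Co1 and mt-Co3 (complex IV, cytochrome c oxidase) and mt-Atp6 (complex V, the ATP synthase). They were chosen by gene symbol and are 10 of the 18088 genes in the table. The mitochondrial genome holds 13 mRNAs, and the other three, mt-Co2, mt-Atp8 and mt-Nd6, served for comparison. All members lie on the same strand of chromosome M.

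The mice were C57BL/6J animals heterozygous for a Tbl1xr1 knock-in allele (HT) or wild type (WT), of both sexes, whose mothers passed fluoxetine, lithium or vehicle to them in the milk between postnatal days 3 and 24. Prefrontal cortex was taken at day 25, and polyadenylated RNA was sequenced with strand information. The 12 groups of genotype, treatment and sex held 5 libraries each, or 4 each for WT lithium females and males, giving 29 female and 29 male libraries. Nothing in the labels says that the libraries of a group came from different animals, and a p-value therefore refers to the spread of these libraries, which may in part be technical. Dam and litter are not named either, so litter and drug cannot be told apart.

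Mitochondrial mRNAs are made by a polymerase of the organelle from long transcripts that run along the circular genome, and are then cut out and given short poly(A) tails by enzymes that the nucleus encodes. Their proteins join many nuclear-encoded subunits in the respiratory chain, whose ATP output neurons draw on heavily. Pieces of the mitochondrial genome have also been copied into nuclear chromosomes over evolution, and such copies (nuclear mitochondrial segments) are annotated as pseudogenes.

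The libraries held 22901678 to 35008274 assigned reads (median 26726216). Tbl1xr1 lay between 1817 and 2279 normalised counts in the 28 WT libraries and between 2276 and 2747 in the 30 HT libraries, so the ranges overlapped at their ends only. All 12 neuronal and all 9 astrocyte markers were read in every library. Markers of neighbouring regions varied strongly: 9 olfactory bulb markers summed to 4873 to 39093 and 10 striatal markers to 7225 to 26042 normalised counts.

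The open reading frames show features of mitochondrial genes. Genes abut or overlap: mt-Nd4l and mt-Nd4 share 7 bases, mt-Atp6 and mt-Co3 share 1, and mt-Atp6 overlaps mt-Atp8 by 43. The end of mt-Nd4l (chrM:10144-10173) and the start of mt-Nd4 (chrM:10167-10196, both plus strand, GRCm38) are printed 5′ to 3′ with the shared bases in capitals.
mt-Nd4l: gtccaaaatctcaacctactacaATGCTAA
mt-Nd4: ATGCTAAaaattattcttccctcactaatg
Only part of the stop codon is encoded in 3 members, mt-Nd4, mt-Cytb and mt-Co3, which end on a lone T that becomes a stop once the poly(A) tail is added. The last 30 bases of mt-Co3 (chrM:9361-9390) are shown with that T in capitals, beside the last 30 of mt-Atp6 (chrM:8578-8607), which ends on a full stop codon.
mt-Co3: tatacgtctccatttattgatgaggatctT
mt-Atp6: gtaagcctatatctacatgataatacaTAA

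Near-identical nuclear copies decided how the deposited values of 4 members had to be read. A run of pseudogenes on the minus strand of chromosome 1 follows the order of the mitochondrial genome: Gm29216 (24615706 to 24616197), Gm28661 (24614885 to 24615565), Gm10925 (24613974 to 24614651), Gm28437 (24613189 to 24613971), Gm28438 (24612775 to 24613119), Gm10222 (24612407 to 24612700) and Gm28439 (24611535 to 24612410). Gm10925 matched 678 of the 681 bases of mt-Atp6 without a substitution. Gm28437 matched 783 of the 784 bases of mt-Co3, again without a substitution. Gm10222 matched the first 294 of the 297 bases of mt-Nd4l, so that only the stop codon separates the annotated sequences. Bases 1 to 294 of mt-Nd4l (chrM:9877-10170, plus strand) and Gm10222 (chr1:24612407-24612700, minus strand) read as follows.
mt-Nd4l and Gm10222: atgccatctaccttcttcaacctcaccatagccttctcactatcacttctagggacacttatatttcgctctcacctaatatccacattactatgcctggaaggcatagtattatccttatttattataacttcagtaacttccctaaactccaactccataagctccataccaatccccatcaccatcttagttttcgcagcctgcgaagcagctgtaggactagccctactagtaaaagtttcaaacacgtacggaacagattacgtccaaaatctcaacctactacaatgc
No base is in capitals because none differs. Gm28438 matched 345 of the 348 bases of mt-Nd3 with 1 substitution, T3C, counted from the first base of mt-Nd3. The first 23 bases of both (chrM:9459-9481, plus strand, and chr1:24613097-24613119, minus strand) are shown with that base in capitals.
mt-Nd3: atTaacctgtacactgttatctt
Gm28438: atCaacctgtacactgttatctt

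Windows of 31 bases give the same picture for each member. Another annotated transcript held 753 of the 754 windows of mt-Co3, 648 of the 651 of mt-Atp6, 264 of the 267 of mt-Nd4l and 312 of the 318 of mt-Nd3. For mt-Co1 the number was 968 of 1515, through Gm29216 and through Gm13340 on chromosome 2. Gm29216 covers bases 1063 to 1545 with the single substitution A1066T. Gm13340 covers all 1545 bases at 97.6% identity, with 37 substitutions, and averaged 14.7 normalised counts. For mt-Nd4 the number was 846 of 1348, through Gm28439, which covers its first 876 bases without a substitution. Below, full-length copies means only the near-identical copies of mt-Nd3, mt-Nd4l, mt-Co3 and mt-Atp6, so Gm13340 is not counted among them. The remaining members were mostly their own: 302 of 1794 windows were shared for mt-Nd5, 136 of 1008 for mt-Nd2, 73 of 1114 for mt-Cytb and 0 of 927 for mt-Nd1.

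Most reads of the shared sequences stood under the names of the nuclear copies. Gm10925 averaged 198743 normalised counts over the 58 libraries and mt-Atp6 20950 ± 7327 (SD, n = 58). Gm28437 averaged 214803 and mt-Co3 39428 ± 16655 (SD, n = 58). Gm28438 averaged 20497 and mt-Nd3 3040.2 ± 673 (SD, n = 58). Gm10222 averaged 11853 and mt-Nd4l 11176 ± 4122 (SD, n = 58). Gm28439 was listed at 0 in all 58 libraries, although its sequence is that of the first 876 bases of mt-Nd4, which averaged 202636 ± 32295 (SD, n = 58). A low count under a mitochondrial name is therefore a statement about the row of the table, and each such member is given below both as deposited and as the sum with its copies. Whether the reads came from the organelle or from chromosome 1 cannot be read from identical sequence.

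The split between a member and its copy changed from library to library. The mt-Nd4l share of the mt-Nd4l and Gm10222 sum had a median of 45.4% and ran from 18.2% in WT fluoxetine female 3 to 100% in HT vehicle male 2 and HT lithium female 3, the 2 libraries in which Gm10222 was listed at 0. The mt-Co3 share ran from 3.66% in WT vehicle female 1 to 28.0% in HT fluoxetine male 3 (median 15.9%). The mt-Atp6 share ran from 4.27% in WT fluoxetine female 4 to 19.3% in WT vehicle female 3 (median 9.12%). For mt-Nd3 the extremes were 7.72% in WT vehicle male 5 and 19.3% in HT vehicle male 4 (median 12.9%). By contrast mt-Co1 held 94.0% to 98.8% of the mt-Co1 and Gm29216 sum. Libraries of the same group lay far apart in this share, as the plot of the split by group shows.

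**Figure D1:**
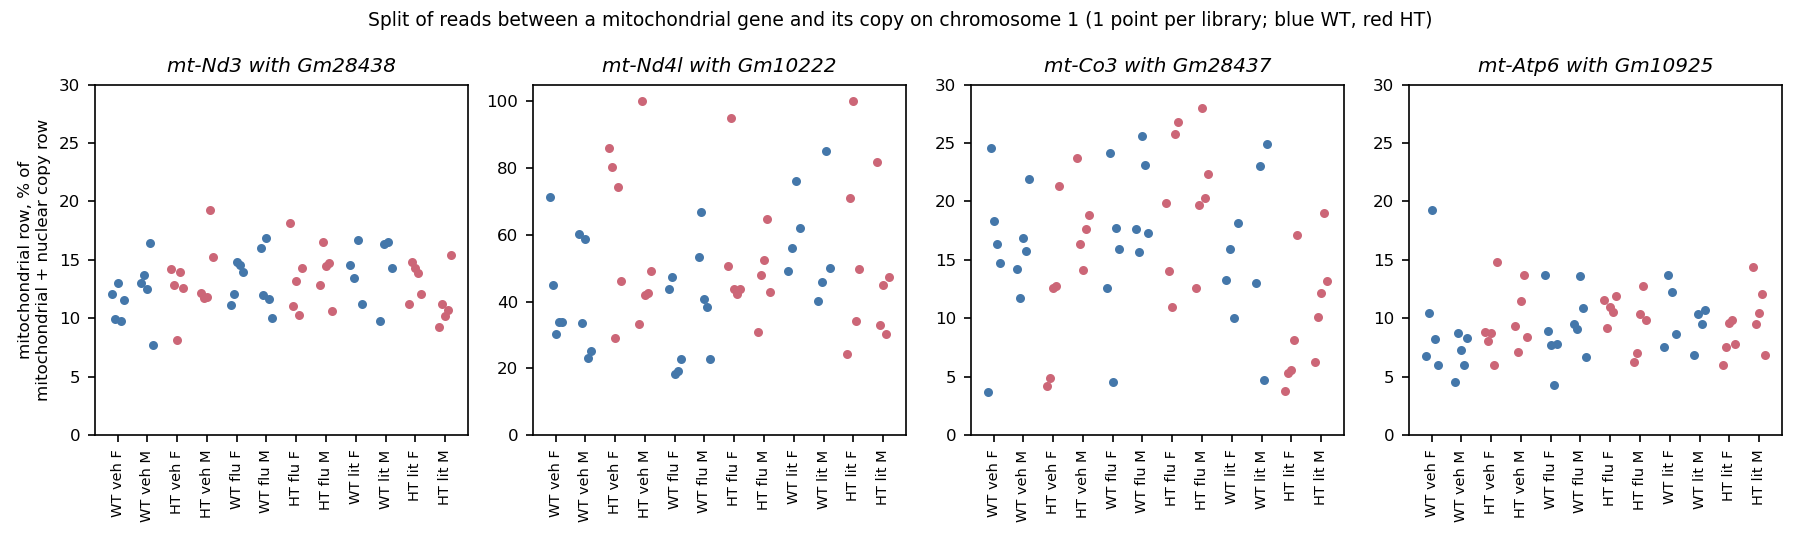
Share of the mitochondrial gene, in percent, in the sum of its normalised count and that of its copy on chromosome 1, for mt-Nd3, mt-Nd4l, mt-Co3 and mt-Atp6; each point is a library, blue for WT and red for HT, in 12 groups on the x axis (veh, flu and lit for vehicle, fluoxetine and lithium, F and M for sex). The shares of mt-Nd4l reach from 18.2% to 100% (its y axis ends higher than the other three), and the shares of mt-Co3 from 3.66% to 28.0%.

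Levels can be compared between genes only per length. On the scale of normalised counts per kb, the deposited rows averaged 498670 ± 59573 for mt-Co1, 206014 ± 29255 for mt-Cytb, 189280.0 ± 26979 for mt-Nd1, 147051 ± 23436 for mt-Nd4, 112849 ± 17775 for mt-Nd2 and 71912 ± 10336 for mt-Nd5 (SD, n = 58 for each). The 4 members with full-length copies came last: mt-Co3 at 50290.3 ± 21244, mt-Nd4l at 37629 ± 13880.0, mt-Atp6 at 30763 ± 10759 and mt-Nd3 at 8736 ± 1935 per kb (SD, n = 58). With copies added, mt-Co3 moved to 324273 ± 36946 and mt-Atp6 to 322604 ± 40142 per kb, behind mt-Co1 at 513992 ± 59773 and ahead of mt-Cytb. mt-Nd4l moved to 77539 ± 10483 and mt-Nd3 to 67636 ± 12442 per kb, on either side of mt-Nd5. In the order with copies added, the neighbours mt-Co3 and mt-Atp6, mt-Cytb and mt-Nd1, mt-Nd4l and mt-Nd5, and mt-Nd5 and mt-Nd3 differed by less than the SD of either. In sum the 10 rows took 4.57% to 7.94% (median 5.79%) of all normalised counts of a library, and 6.01% to 9.97% (median 7.26%) with copies added. Both minima fell on WT fluoxetine female 4 and both maxima on WT fluoxetine male 2.

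**Figure D2:**
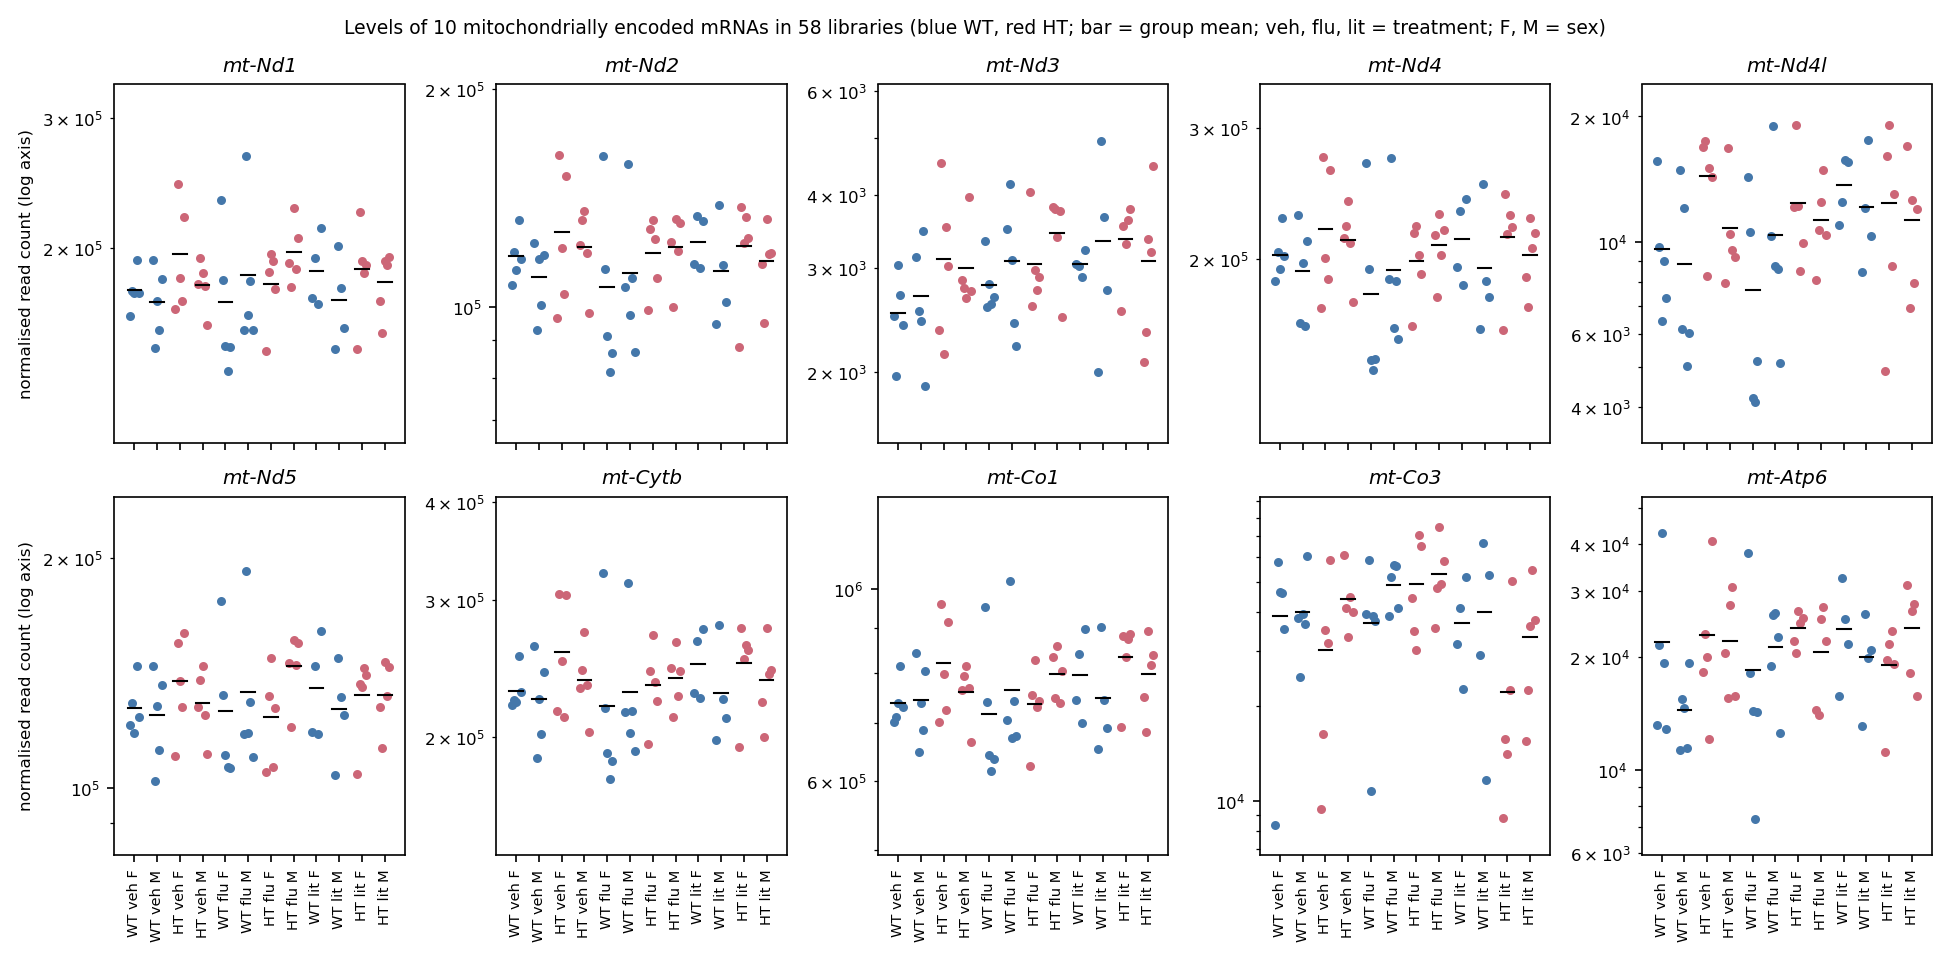
Normalised read count (log axis, a separate range per panel) of each of the 10 mRNAs in the 58 libraries, by group; each point is a library, blue for WT and red for HT, and the bar is the group mean. The points of mt-Co3, mt-Atp6 and mt-Nd4l scatter widely within groups (from 8382 to 74464 for mt-Co3), while those of mt-Nd1 and mt-Cytb stay closer together apart from single high libraries in the WT fluoxetine groups.

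Spread between libraries of a group was measured as the SD of log2(normalised count + 1) around the 12 group means. The median over all 16606 genes tested was 0.159, and over the 391 other genes averaging 10000 or more it was 0.104. The 6 members without full-length copies lay between 0.173 and 0.238: mt-Co1 0.173, mt-Nd1 0.205, mt-Cytb 0.209, mt-Nd5 0.213, mt-Nd4 0.238 and mt-Nd2 0.238. The deposited rows of mt-Co3 and mt-Nd4l had 0.753 and 0.560, at the 97.7 and 94.2 percentiles of all genes, and mt-Atp6 and mt-Nd3 had 0.510 and 0.322. With copies added these 4 values were 0.166 for mt-Co3, 0.199 for mt-Nd4l, 0.183 for mt-Atp6 and 0.256 for mt-Nd3. Over all 58 libraries the highest mt-Co3 value was 8.88 times the lowest as deposited and 1.59 times with Gm28437 added. The same ratio was 5.80 and 1.66 for mt-Atp6, and 4.64 and 1.95 for mt-Nd4l.

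**Figure D3:**
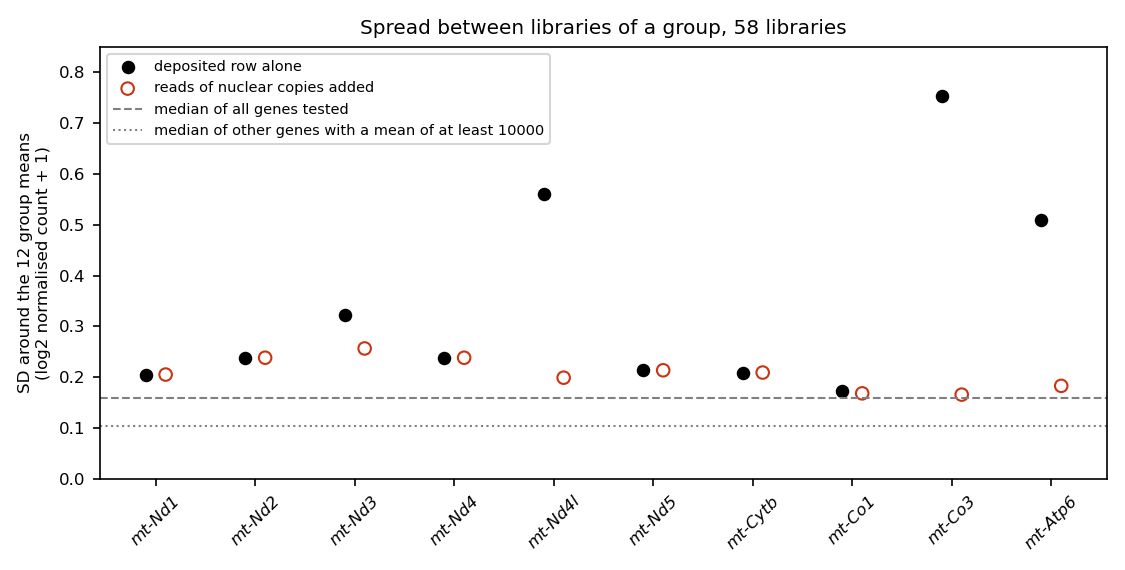
SD between libraries of a group (y axis, log2 scale) for each member, filled points for the deposited row and open circles for the sum with its nuclear copies; the dashed line is the median of all genes tested (0.159) and the dotted line that of other genes averaging 10000 or more (0.104). The 4 members with full-length copies fall from up to 0.753 to at most 0.256 when the copies are added, and every member stays above both lines.

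The same 4 members also departed from the pattern that the others shared. After group means were subtracted, the 15 pairs among mt-Nd1, mt-Nd2, mt-Nd4, mt-Nd5, mt-Cytb and mt-Co1 had Pearson r between 0.911 and 0.978 over the 58 libraries (median 0.948). Pairs among mt-Nd3, mt-Nd4l, mt-Co3 and mt-Atp6 had r between -0.09 and 0.32 as deposited and between 0.614 and 0.916 with copies added. For mt-Atp6, r with mt-Cytb was 0.584 for its own row, 0.953 for Gm10925 and 0.980 for the sum. For mt-Co3 the order was the same, with 0.311 for its own row, 0.729 for Gm28437 and 0.870 for the sum. In mt-Nd4l the row and Gm10222 ran against each other (r = -0.47), and neither matched mt-Cytb as closely (0.557 and -0.02) as their sum did (0.695). These coefficients describe libraries that share depth and scaling factor, and no test was attached to them.

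**Figure D4:**
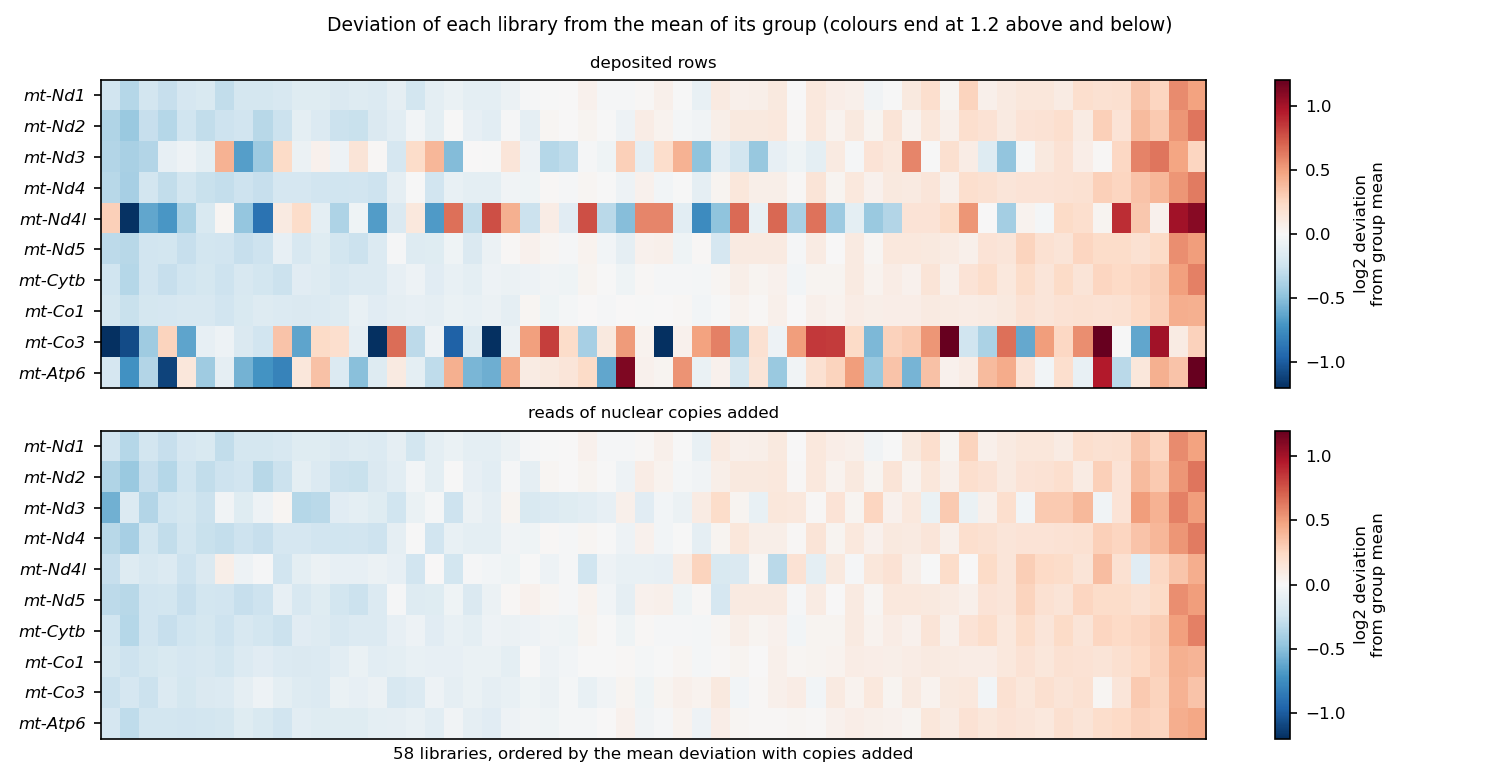
Deviation of each library (columns, in the same order in both panels) from its group mean, as a log2 difference, for the 10 mRNAs (rows), as deposited above and with nuclear copies added below; red is higher, blue lower, and colours end at 1.2. In the upper panel mt-Nd3, mt-Nd4l, mt-Co3 and mt-Atp6 break the vertical bands that the other 6 form, and in the lower panel all 10 follow them to a large extent.

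The members' values in single libraries show what the group means rest on. For mt-Cytb, the electron-carrying core of complex III with few shared windows, WT vehicle libraries had 220027, 223020.3, 221820.3, 253915 and 228849.7 in the females and 261976, 188398, 223923, 201836 and 242478 in the males (normalised counts). HT vehicle libraries had 216002, 304753, 250176, 212383 and 304232 in the females and 230957, 244099.8, 273018, 233667 and 203165 in the males. HT vehicle females 2 and 5 and HT vehicle male 3 lay above every WT vehicle library, and the remaining values overlapped. Under fluoxetine, mt-Cytb was 325081, 218329, 190937, 176619 and 186683 in the females and 215279, 315317, 202319, 216286 and 192319 in the males for WT. The HT fluoxetine values were 195976, 243505, 270249.7, 235498 and 222856 in the females and 244995, 212554, 264724, 226206 and 243445 in the males. WT fluoxetine female 1 and WT fluoxetine male 2 exceeded every other library of these 4 groups, and the other 8 WT libraries reached no higher than 218329. Lithium gave 227569, 265653, 224224 and 275069 in the females and 198646, 278261, 223905 and 211795 in the males in WT. In HT it gave 194567, 276190.5, 252245, 262279 and 258406 in the females and 221643, 200215, 275763, 241372 and 243789 in the males. These groups overlapped throughout.

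mt-Nd4l, a small membrane subunit of complex I, had the highest HT minus WT values of the deposited rows under vehicle and under fluoxetine. WT vehicle libraries had 15655, 9726, 6438, 8997 and 7326 in the females and 14876, 6161, 12042, 5031 and 6041 in the males. HT vehicle libraries had 16939.9, 17451, 8277, 15045 and 14282 in the females and 7949, 16834, 10438, 9575 and 9207 in the males. HT vehicle females 1 and 2 exceeded every WT female and females 4 and 5 all but WT vehicle female 1, and values overlapped in both sexes. With Gm10222 added, mt-Nd4l was 21997, 21668, 21218, 26632 and 21621 in the females and 24730.3, 18373, 20482, 21788 and 24100.3 in the males in WT vehicle. The HT vehicle sums were 19673, 21711, 28571, 20279 and 30857 in the females and 23850.1, 16834, 24805, 22563 and 18742 in the males. The high HT rows were thus not high sums: HT vehicle females 1, 2 and 4, at the top of the deposited row, were the lowest of their group in the sum. Under fluoxetine the row held 14283, 10534, 4204, 4116 and 5163 in the females and 10335, 18979, 8742, 8619 and 5128 in the males in WT. It held 12094, 19088, 12215, 8497 and 9923 in the females and 8106, 10667, 12431, 14906 and 10374 in the males in HT. WT fluoxetine females 3, 4 and 5 and WT fluoxetine male 5 lay below every HT library, while WT fluoxetine male 2 nearly reached the top HT value. With lithium, the row was 10984, 12432, 15702 and 15516 in the females and 8477, 12082, 17582 and 10345 in the males in WT. HT lithium libraries had 4884, 16114, 19097, 8757 and 13029 in the females and 16966, 6952, 12622, 7952 and 12015 in the males, a span that enclosed all WT lithium values.

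mt-Co3, a core subunit of cytochrome c oxidase, showed isolated low rows in several groups. WT vehicle libraries had 8382, 57752, 46454, 46110.0 and 35280.2 in the females and 38168, 24739, 39412, 36669 and 60367 in the males. HT vehicle libraries had 9404, 16350.1, 35056, 31839 and 58679.8 in the females and 60787, 41155, 33154, 44494 and 40114 in the males. WT vehicle female 1 and HT vehicle female 1 lay far below most libraries of their groups. Their sums with Gm28437 were 229032 and 225484, inside the range of the sums, which ran from 210278 to 335231 over all vehicle libraries. Under fluoxetine the row was 39266, 58448, 10714, 38944 and 37362 in the females and 38852, 51504, 56380.1, 56010.3 and 41099 in the males in WT. In HT it was 44416, 34638, 30224, 70528 and 64947 in the females and 35466, 47609, 74464, 49097 and 58342 in the males. WT fluoxetine female 3 was the lowest there, and the HT values overlapped the other WT values. With lithium the row was 31537, 41126, 22627 and 51705 in the females and 29158, 66477, 11600.5 and 52548 in the males in WT. HT lithium libraries had 8815, 15709, 14105, 22527 and 50173 in the females and 15490.4, 22536, 35967, 54249 and 37773 in the males. In all, 4 of the 5 HT lithium females lay below the lowest WT lithium female, with overlap through the fifth. The sums with Gm28437 overlapped, from 225379 to 284720 in WT females and from 234569 to 294598 in HT females.

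Genotype was tested within each treatment with limma over all genes. Under vehicle, no member passed an adjusted p of 0.05 (background 0.0181% of genes called). Of the 10 rows, 9 were above 0 (HT minus WT, median 0.12 on the log2 scale, against 0.00 over all genes). The range was from -0.10 ± 0.32 (SE) for mt-Co3 to 0.49 ± 0.24 for mt-Nd4l, which was higher in 8 of 10 HT libraries than the WT mean of their sex on the log2 scale. mt-Nd4l (limma adjusted p = 0.857) was the only member with an unadjusted p under 0.05, a level that 5.76% of all genes reached. With Gm10222 added, mt-Nd4l differed by 0.02 ± 0.09 (SE), and all 10 sums lay between 0.02 and 0.12. The median of the 10 rows was 0.07 without HT vehicle female 2. Marker lists went both ways without a call. Above 0 lay 10 of 12 neuronal, 9 of 10 oligodendrocyte, 8 of 9 microglial, 7 of 9 astrocyte and 7 of 9 endothelial markers. The count was 3 of 8 for mural, 3 of 10 for striatal and 0 of 9 for olfactory bulb markers (median -0.87). Their part in the members' differences was not tested.

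Under fluoxetine, where the background was 0.994%, again no member was called. All 10 rows were above 0 with a median of 0.15, from 0.06 ± 0.09 (SE) for mt-Nd5 to 0.53 ± 0.24 for mt-Nd4l, which was higher in 9 of 10 HT libraries by the same count. Again mt-Nd4l alone (limma adjusted p = 0.223) had an unadjusted p under 0.05, as 18.3% of all genes did. With copies added mt-Nd4l was at -0.01 ± 0.09, and the sums ran up to 0.17 for mt-Nd2 with a median of 0.10. These medians depended on 2 libraries: without WT fluoxetine female 1 and WT fluoxetine male 2 the rows had a median of 0.28 and the sums of 0.22. In that fit 0 members were called (smallest limma adjusted p 0.094 for the rows and 0.093 for the sums), against 89 of 16606 genes. An unadjusted p under 0.05 was reached by 8 of 10 rows and 9 of 10 sums. The share of all genes at that level is not given for this fit, and the members varied together, so these are not separate results. The 2 left-out libraries were picked for their high mitochondrial levels, so these values are a description only. Under fluoxetine too, 0 of 9 olfactory bulb markers lay above 0 (median -0.98), with 2 of 10 striatal, 3 of 9 endothelial and 3 of 8 mural markers. The count was 10 of 12 for neuronal, 10 of 10 for oligodendrocyte, 7 of 9 for astrocyte and 7 of 9 for microglial markers. Their part was not tested.

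Under lithium (background 0.012%) no member was called, 7 of 10 rows were above 0 and the median was 0.02. mt-Co1, the catalytic subunit of complex IV, was the highest at 0.08 ± 0.09 (SE), and mt-Co3 the lowest at -0.52 ± 0.34. With Gm28437 added mt-Co3 was at 0.12 ± 0.08, and all 10 sums were between 0.01 and 0.21, the last of these mt-Nd3. The median of the rows ran from -0.03 without WT lithium male 1 to 0.07 without WT lithium male 2. Of 9 olfactory bulb markers 1 lay above 0 (median -1.08), and of 10 oligodendrocyte markers all did (median 0.21). So did 8 of 12 neuronal, 7 of 9 astrocyte, 8 of 9 microglial, 4 of 9 endothelial, 5 of 8 mural and 7 of 10 striatal markers. Their part was likewise not tested. No member had an unadjusted p under 0.05 here, against 5.34% of all genes.

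Fluoxetine was compared with vehicle within each genotype. In WT (background 0.367%) no member was called, 0 of 10 had an unadjusted p under 0.05 against 13.4% of all genes, and 5 of 10 were above 0 (median -0.01). Values ran from -0.12 ± 0.10 (SE) for mt-Nd4, a proton-pumping subunit of complex I, to 0.17 ± 0.14 for mt-Nd3. Without the same 2 WT fluoxetine libraries the median was -0.13, with 2 rows above 0 and 0 called, against 127 of 16606 genes. In that fit 3 of 10 rows had an unadjusted p under 0.05, a level for which the share of all genes is not given. In HT (background 0%) no member was called, 0 of 10 had an unadjusted p under 0.05 against 9.19% of all genes, and 5 of 10 were above 0 with a median of -0.02. mt-Co3 stood highest at 0.57 ± 0.32 (SE) and came to 0.00 ± 0.08 with Gm28437 added, while mt-Nd4 was lowest at -0.07 ± 0.10. The difference of the fluoxetine effect between HT and WT was called in no member (background 0%) and had an unadjusted p under 0.05 in 0 of 10, against 4.78% of all genes. Its values ran from -0.08 ± 0.31 (SE) for mt-Atp6 to 0.41 ± 0.46 for mt-Co3, and from -0.02 to 0.06 for the sums. Leaving out the same 2 libraries moved that median from -0.01 to 0.13, with 0 called.

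Lithium was compared in the same way, against the vehicle libraries that also served for fluoxetine. In WT (background 0.0301%) no member was called and 9 of 10 were above 0 (median 0.05). mt-Nd4l had the highest value, 0.55 ± 0.25 (SE), and was higher in 8 of 8 lithium libraries than the vehicle mean of their sex on the log2 scale (WT lithium male 1, at 8477, lay below the mean of the counts themselves, 8830.2). It was the only member with an unadjusted p under 0.05 (limma adjusted p = 0.478), against 9.38% of all genes. The lowest value was that of mt-Co3, -0.05 ± 0.34. With Gm10222 added mt-Nd4l was at 0.01 ± 0.09 and higher in 2 of 8. In HT (background 0.385%) no member was called, 0 of 10 had an unadjusted p under 0.05 against 12.2% of all genes, and 2 of 10 were above 0 (median -0.03). mt-Co3 was lowest at -0.47 ± 0.32 (SE) and mt-Nd3 highest at 0.08 ± 0.14. With Gm28437 added mt-Co3 was at 0.07 ± 0.08. The difference of the lithium effect between HT and WT was called in no member (background 0%), and 0 of 10 had an unadjusted p under 0.05 against 3.67% of all genes. All 10 rows were below 0, from -0.69 ± 0.35 (SE) for mt-Nd4l to -0.01 ± 0.12 for mt-Co1, except that mt-Co1 came to 0.01 after upper-quartile rescaling and 0.02 after division by the non-mitochondrial total. With copies added 3 of 10 were above 0, and mt-Nd4l was at 0.05 ± 0.13.

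Females and males, averaged over genotype and treatment, differed in no member at the threshold (background 0.114%). mt-Co3 was lower in females by 0.39 on the log2 scale as deposited (-0.39 ± 0.19 SE). It alone had an unadjusted p under 0.05 (limma adjusted p = 0.651), against 7.56% of all genes, and its sum with Gm28437 was higher by 0.04 ± 0.04. The other rows ran up to 0.08 ± 0.14 for mt-Nd4l. The 7 effects of genotype and drug were also compared between the sexes, and no member was called in any of those differences (background 0% in 5 of them and 0.0181% in 2).

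Counts of 0 held across the tools run on the 10 comparisons. edgeR and DESeq2, fitted on the recovered reads, also called 0 members in each and gave 0 members with an unadjusted p under 0.05. The width of the intervals limits what this means. Over the 7 genotype and drug comparisons, the 95% confidence intervals of the 10 deposited rows reached from -1.21 to 1.22 on the log2 scale, both for mt-Co3. Those of the sums reached from -0.33 for mt-Nd4 to 0.45 for mt-Nd3, that is from 0.797-fold to 1.36-fold, and all 70 of them included 0. Differences inside these bounds were not resolved with 4 or 5 libraries a group.

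**Figure D5:**
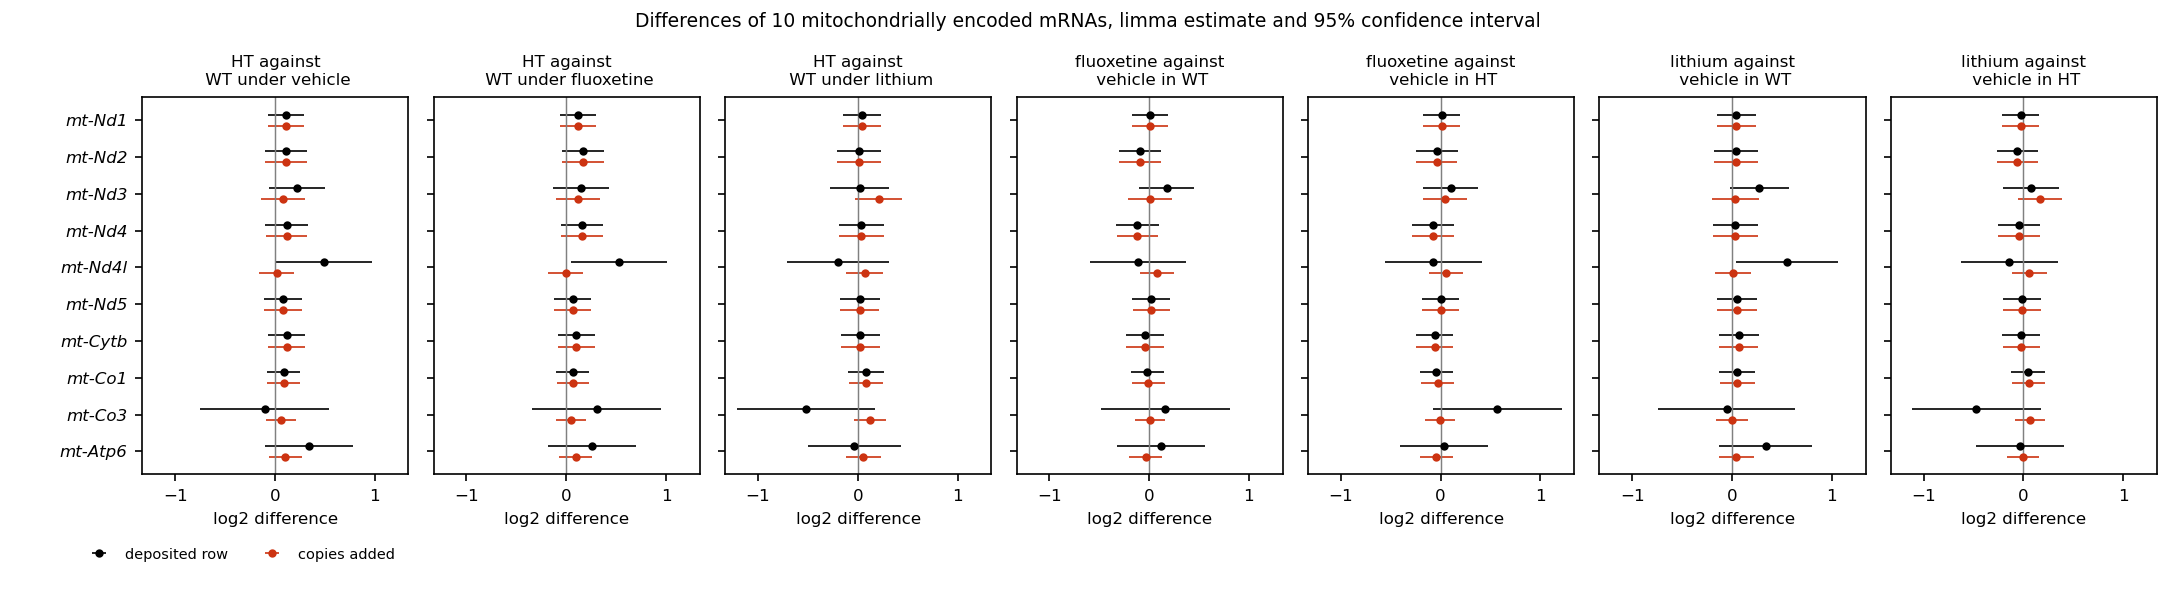
Log2 difference (x axis) of each member in the 7 comparisons of genotype within treatment and of drug within genotype, as limma estimates with 95% confidence intervals; black is the deposited row and red the sum with nuclear copies. The black intervals of mt-Co3, mt-Nd4l and mt-Atp6 are wide and their estimates reach from -0.52 to 0.57, whereas every red interval includes 0.

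Nuclear genes of oxidative phosphorylation, which supply the other subunits of the complexes, were read against the members. Of 77 genes, 0 were called in 9 of the 10 comparisons. With lithium in HT, 2 of 77 rose, where 0.385% of all genes were called: Atp5g3, which encodes the c subunit of ATP synthase, by 0.20 ± 0.05 (SE; limma adjusted p = 0.0348) and the complex I subunit Ndufb5 by 0.12 ± 0.03 (adjusted p = 0.0348). In that comparison 71 of 77 lay above 0 (median 0.09), against 49.98% of all genes. The members had 2 of 10 rows and 4 of 10 sums with copies above 0 there. In WT with lithium 72 of 77 lay above 0 (median 0.05), and with fluoxetine 65 of 77 in WT and 71 of 77 in HT did (median 0.06 in each). The members had 9 of 10 rows and 10 of 10 sums above 0 with lithium in WT. With fluoxetine they had 5 of 10 rows in each genotype, and 5 of 10 sums in WT and 4 of 10 in HT. HT against WT under vehicle had 36 of 77 above 0 (median 0.00), beside 9 of 10 member rows and 10 of 10 sums. All genes together had medians within 0.01 of 0 in each of these comparisons. The 77 genes are not independent replicates, and the lithium and fluoxetine comparisons of a genotype share their vehicle libraries.

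Among 39 nuclear genes for mitochondrial transcription, RNA processing and translation, Fastkd2, an RNA-binding protein needed for the mitochondrial ribosome, fell by 0.20 ± 0.04 (SE; limma adjusted p = 0.0128) with fluoxetine in WT (background 0.367%), and no other was called in any comparison. Of 18 regulators of mitochondrial biogenesis, Gabpa, the DNA-binding part of nuclear respiratory factor 2, fell by 0.25 ± 0.06 (SE; adjusted p = 0.0371) in the same comparison. Of 11 genes for fission, fusion and mitophagy, the mitophagy receptor Bnip3l rose by 0.09 ± 0.02 (SE; adjusted p = 0.0366) in HT against WT under fluoxetine (background 0.994%). Of these 5 called genes, Fastkd2 stayed past the threshold with each of 20 libraries left out in turn, while the call was lost in 10 of 20 for Atp5g3 and Bnip3l, 12 for Ndufb5 and 13 for Gabpa. None of the 5 was called when only the groups of the comparison were fitted.

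Variation of the members between libraries of the same group was set beside cell type markers. mt-Cytb stood for the members, a choice made after seeing the data, and 18 measures were compared with it after group means were subtracted, with 100000 permutations and Benjamini-Hochberg adjustment. Endothelial markers gave r = 0.709 and rho = 0.671, microglial markers r = 0.695 and rho = 0.682, and mural cell markers r = 0.654 and rho = 0.693 (permutation p = 1e-05 each, the smallest these permutations can give; adjusted p = 3.6e-05 and 4.5e-05 for r and rho). Oligodendrocyte markers (r = 0.608, rho = 0.596) and astrocyte markers (r = 0.587, rho = 0.508) followed, and neuronal markers had r = 0.369 and rho = 0.383 (permutation p = 0.00425 and 0.00324, adjusted p = 0.00695 and 0.00583). Without the 2 libraries farthest from the median of each measure, r was 0.650 for endothelial, 0.609 for microglial, 0.695 for mural, 0.535 for oligodendrocyte, 0.442 for astrocyte and 0.307 for neuronal markers. Without WT fluoxetine female 1 and WT fluoxetine male 2 instead, r was 0.643, 0.609, 0.610, 0.556, 0.421 and 0.467 in that order. Neuronal markers then stood above astrocyte markers, so the order of cell types depended on these libraries. Olfactory bulb markers ran opposite (r = -0.51, rho = -0.55, adjusted permutation p = 9e-05 and 7.2e-05, r = -0.47 without the farthest 2). The 77 nuclear oxidative phosphorylation genes showed no such relation (r = -0.05, permutation p = 0.724), nor did the number of reads (r = -0.14, permutation p = 0.289). Past the adjusted threshold were also nuclear-retained long noncoding RNAs (r = 0.427, adjusted permutation p = 0.00198), striatal markers (r = 0.412, adjusted permutation p = 0.00282), genes of mitochondrial fission, fusion and mitophagy (r = 0.384, adjusted permutation p = 0.0047) and, with the opposite sign, nuclear genes for mitochondrial RNA and translation (r = -0.41, adjusted permutation p = 0.00282; rho = -0.24, adjusted permutation p = 0.0888) and regulators of biogenesis (r = -0.35, adjusted permutation p = 0.0113). In bulk tissue, fewer cells of a type and less RNA per cell cannot be told apart, the labels name no batch within which to repeat this, and the part of cell composition in the members' spread was not tested.

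Both libraries with the highest members of their groups carried more glial and vascular marker RNA. In WT fluoxetine female 1 all 10 oligodendrocyte markers and all 9 astrocyte markers exceeded the 4 other libraries of its group, and the oligodendrocyte sum was 238923 against 109419 to 138278. In WT fluoxetine male 2 this held for 10 of 10 oligodendrocyte, 6 of 9 astrocyte, 7 of 9 microglial, 5 of 9 endothelial and 5 of 8 mural markers. That library had a microglial sum of 12978 against 9587 to 11411 and an astrocyte sum of 164522 against 122758 to 134533. Endothelial markers summed to 9898 against 7066 to 7546 in the female and to 8446 against 6378 to 7573 in the male. The neuronal sum of the female, 322438, lay below the 323873 to 349710.0 of its group, and that of the male, 318937, within 270155 to 328182. The part of these markers in the members' values was not tested. No marker on these lists was at 0 in either library.

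Genes resembling the members in their deviations were sought among 13675 genes averaging 50 or more. Mitochondrially encoded genes and their nuclear copies had been left out beforehand. The measure was Pearson r with the mean of the 10 rows over the 58 libraries after group means were subtracted. The highest 10 were Car8, Tmem229a, Gng12, Ppp1r9b, Fermt2, Spop, Slc39a12, Kif5a, Rapgef4 and Scg3, with r from 0.811 down to 0.785. The choice rests on the deposited rows. With copies added, r of these 10 ran from 0.776 for Fermt2 and 0.803 for Tmem229a to 0.877 for Car8 and 0.885 for Slc39a12, so their order changed. Kif5a encodes a kinesin of neurons, and Slc39a12 a zinc transporter. At the other end stood Dync1i1 (r = -0.80), a dynein subunit, then Maged1, Sybu, Trim28 and Wdr6 (r = -0.76 to -0.73). None of these belongs to the nuclear oxidative phosphorylation list. Across all compared genes, which are not independent replicates, r ran with the GC content of a gene at 0.04. Median GC content was 47.6% in the 100 genes with the highest r, 51.3% in the 100 with the lowest and 49.6% in all compared.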

How the data were processed

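RNA-seq of mouse prefrontal cortex was used as deposited. The authors' table holds a signal per gene, read counts divided by 1 size factor per library. The submitters' processing notes name DESeq2 1.19.11, Salmon 0.11.2, R 3.6.0 and GRCm38. Salmon shares out reads that match several transcripts by an estimate, so identical sequences have no separate evidence. Dividing by the smallest step of each library gave whole reads in 100% of the values (tolerance 0.0001), with size factors of 0.787 to 1.23. Of 18088 IDs, 18077 matched GENCODE M21, which gave names, coordinates and transcript sequences.

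limma 3.58.1 (R 4.3.3, mean-variance trend) was fitted to log2(value + 1) of the 16606 genes averaging 10 or more, with 12 group means in 1 model (46 residual degrees of freedom) and Benjamini-Hochberg adjustment over all genes at 0.05. A fold change is on that scale, which understates changes of low genes. edgeR 4.0.16 (17757 genes) and DESeq2 1.42.0 were run on recovered reads. On simulated counts for HT against WT under vehicle (16519 genes), limma called 80 of 100 genes changed 1.5-fold and 93 of 100 changed 2-fold. It also called 17 unchanged genes in the same run, a larger share of the calls than the threshold of 0.05 aims at. The median spread of all genes tested was 0.159, against 0.173 to 0.753 for the deposited member rows. The simulated shares therefore need not hold for the members. Copies were annotated transcripts with at least 95% identity over at least 100 bases (blastn 2.17.0), and their values were added to the member's on the linear scale.

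The members and all gene lists were chosen with earlier results of these data known. In each comparison the members with the highest and lowest difference and any called are named, as are called members of the lists (at most 3 for lists outside mitochondrial RNA) and the 10 most and 5 least similar genes. Replicate numbers come from the titles, although the library names of WT lithium males 3 and 4 carry the numbers 4 and 5. Alternatives were other pseudocounts, filters, scalings, library weights, sexes apart, copies added, a replicate block and leaving out libraries.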

Additional observations from a re-analysis of the deposited data

Results flagged for a closer look

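Single libraries stood apart from the rest of their group, by a gap larger than Dixon's 95% critical value, in 13 of 120 tests of member rows and 8 of 48 tests of sums with copies. Chance flags about 1 in 20 such groups, but members varied together between libraries. The tests were therefore not independent, and the counts measure no excess over chance. The 21 values came from 9 libraries, and no cause was tested.

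WT fluoxetine male 2 was the highest of its group for mt-Nd1 (266180.4 normalised counts), mt-Nd4 (273618), mt-Nd5 (192540), mt-Cytb (315317) and mt-Co1 (1020305), and for the sums of mt-Nd3 (34941), mt-Co3 (329021) and mt-Atp6 (286409) with their copies. WT fluoxetine female 1 was the highest of its group for mt-Cytb (325081) and for the sums of mt-Nd3 (29897), mt-Nd4l (32751) and mt-Co3 (312425). HT lithium female 1 was the lowest of its group for mt-Nd5 (104317) and mt-Co1 (691472).

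The other flagged values each concern 1 or 2 quantities. mt-Nd3 stood out as high in HT fluoxetine female 1 (4037) and in HT vehicle male 4 (3957). mt-Nd4l was high in HT vehicle male 2 (16834), a library in which Gm10222 was listed at 0. WT vehicle female 4 was high for mt-Cytb (253915) and for the sum of mt-Nd4l with Gm10222 (26632). WT vehicle female 3 was high for mt-Atp6 (42828), and WT lithium male 2 for the sum of mt-Nd4l with Gm10222 (26299).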

How the results depend on the processing

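Members called numbered 0 in all 151 refits of the 10 comparisons under alternatives and in all 272 refits with a single library left out. Directions were followed only for the members with the highest and lowest difference of each comparison. Those that turned other than with copies belonged to differences within their SE (log2 scale), and the cause was not tested. The mt-Co1 difference of the lithium effect between genotypes was 0.014 after upper-quartile rescaling, 0.021 after division by the non-mitochondrial total, 0.015 with array weights, 0.060 in males alone, and between -0.037 and 0.041 with single libraries left out. For mt-Co3, lithium against vehicle in WT was 0.062 with array weights, 0.108 in females alone and between -0.299 and 0.197 with single libraries left out (0.197 without WT lithium male 3); HT against WT under vehicle was 0.169 in males alone and between -0.346 and 0.076 (0.076 without HT vehicle female 1); and the difference of the fluoxetine effect was -0.075 in males alone. The mt-Atp6 difference of the fluoxetine effect was 0.477 in females alone, and between -0.220 and 0.077 with single libraries left out (0.077 without WT fluoxetine female 1). mt-Nd5 in HT against WT under fluoxetine was -0.012 in females alone.

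Adding the nuclear copies turned 9 differences of the highest and lowest members of each comparison, which are given here. Other members turned as well: in the difference of the lithium effect, 0 of 10 rows and 3 of 10 sums were above 0. mt-Co3 came to 0.059, -0.0023, 0.0024, 0.066, 0.123, -0.013 and 0.038 in HT against WT under vehicle, fluoxetine in HT, lithium in WT, lithium in HT, HT against WT under lithium, the difference of the fluoxetine effect, and females against males. mt-Nd4l came to -0.0053 in HT against WT under fluoxetine and 0.050 in the difference of the lithium effect. The copies moved levels (per kb) to 67636 for mt-Nd3, 77539 for mt-Nd4l, 324273 for mt-Co3 and 322604 for mt-Atp6, and spreads to 0.256, 0.199, 0.166 and 0.183 in that order.

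Leaving out both WT fluoxetine female 1 and WT fluoxetine male 2, an alternative chosen after seeing the data, gave spreads of 0.168 for mt-Nd1, 0.199 for mt-Nd2, 0.200 for mt-Nd4, 0.177 for mt-Nd5, 0.169 for mt-Cytb and 0.143 for mt-Co1. With copies added as well, which was also chosen then, those of mt-Nd3, mt-Nd4l, mt-Co1, mt-Co3 and mt-Atp6 were 0.226, 0.181, 0.141, 0.143 and 0.153. The mt-Atp6 difference of the fluoxetine effect was 0.119 without both libraries.

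Correlations between same-numbered libraries were not all over 0.1 in any of 14 tests by comparison and sex, and the libraries were not treated as paired. With 4 or 5 correlations per test, this cannot exclude that some same-numbered libraries share a litter. For WT lithium males the library names and the titles number 2 libraries differently, and the titles were used. A fit with the replicate number as a block called 0 members, gave 0.053 for mt-Co3 with lithium in WT and a spread of 0.67 for mt-Co3. Among the nuclear genes called, Ndufb5 lost its call under the block. All 8 called list genes lost theirs when only the groups of the comparison were fitted, where fewer degrees of freedom remain. Of the called genes, Fastkd2 lost its call in 2 of 16 alternatives and Ndufb5 in 5 of 15, with the others between. With 4 or 5 libraries a group, the number of libraries limits the precision. The lowest value of any member in any library was 1894 normalised counts (mt-Nd3 in WT vehicle male 5).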

Other observations

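The other mitochondrially encoded RNAs in the table differed in how much they varied. mt-Co2, a core subunit of complex IV, had all 654 of its 31-base windows in other annotated transcripts, and Gm28661 on chromosome 1 averaged 181437 normalised counts against 66914 ± 31156 (SD, n = 58) for mt-Co2. Its share of the sum ran from 10.04% in WT lithium female 3 to 52.9% in HT vehicle male 4, and its SD between libraries of a group was 0.740 alone and 0.238 with Gm28661 added. mt-Nd6, the mRNA of the opposite strand, averaged 1698 ± 575 (SD, n = 58), or 3271 per kb. mt-Atp8 averaged 21294 ± 5870 (SD, n = 58). Their SDs between libraries of a group, 0.516 and 0.377, exceeded the 0.173 to 0.238 of the 6 members without full-length copies, although other transcripts hold only 7.36% and 7.47% of their 31-base windows. None of these 3 mRNAs was called by limma in any of the 10 comparisons.

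Both mitochondrial ribosomal RNAs were present in these libraries of polyadenylated RNA. mt-Rnr1 averaged 95499.7 ± 16472 and mt-Rnr2 124030 ± 20382 normalised counts (SD, n = 58). Their SD between libraries of a group, 0.224 and 0.219, was close to that of mt-Cytb at 0.209. Neither was called in any of the 10 comparisons.

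In females against males, 76 of 77 nuclear oxidative phosphorylation genes lay above 0, against 49.9% of all genes. Their median was 0.05 on the log2 scale, and 0 were called by limma. The 77 genes are not independent replicates.

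Of 14 immediate early genes, which neurons switch on with activity, 3 fell in HT against WT under fluoxetine, where 0.994% of all genes were called: Npas4 by 1.07 ± 0.20 (SE; limma adjusted p = 0.00562), Btg2 by 0.88 ± 0.18 (adjusted p = 0.0119) and Ier2 by 0.78 ± 0.20 (adjusted p = 0.0397). With single libraries left out in turn, Npas4 stayed called in 20 of 20, Btg2 lost its call without WT fluoxetine male 5 (adjusted p = 0.0516) and Ier2 lost it in 10 of 20. Of 14, 2 lay above 0 there. No gene of the cell type, brain region, nuclear-retained RNA or non-polyadenylated RNA lists was called in any of the 10 comparisons.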
